A study of Sus scrofa with 12 samples.

Results

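The comparison described here sets skeletal muscle of pigs at 14 days after birth against muscle at 7 days after birth, across all genes on the array. It used the 3 arrays labelled day 14 and the 3 labelled day 7, which are 6 of the 12 arrays of a series on the first 3 weeks of life. The other arrays came from animals sampled within 24 hours of birth (day 0) and at day 21, also 3 of each. All were untreated pig (Sus scrofa) skeletal muscle, labelled as biological replicates, and the groups differed by age alone as far as the labels say. The labels give no muscle, breed, sex or litter, so these were not compared here. They do not say that each array is a different animal, and the p-values measure the spread between these samples. The porcine Affymetrix array reports a transcript through a probe set, several short probes that together give 1 linear signal, brighter where more of the labelled RNA bound.

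In the weeks after birth pig muscle fibres no longer increase much in number but grow in length and girth, and satellite cells, the stem cells of muscle, divide and give their nuclei to the fibres. Over the same time sarcomere proteins of fetal type give way to adult fast and slow isoforms, growth comes under the control of growth hormone, and the immune system meets microbes. Skeletal muscle also holds vessels, connective tissue, fat cells and white blood cells, so a whole-tissue RNA level can move with the cells present. In whole tissue, fewer cells of a type and less RNA per cell cannot be told apart.

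Between day 7 and day 14 a single probe set passed the test, and no gene with a symbol did. Of 14399 probe sets tested, 1 passed a Benjamini-Hochberg adjusted p of 0.05 in limma (0.00694%), and it was lower at day 14. Of the 5296 genes with a symbol, 0 passed, while 367 (6.93%) had an unadjusted p under 0.05, with 148 (2.79%) higher and 219 (4.14%) lower at day 14. Changes below are log2 differences, day 14 minus day 7, given ± SE with n = 3 arrays per age, and every gene named missed the adjusted threshold unless stated otherwise. Each gene is shown by its brightest probe set among those tested.

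The small number of calls came with a bounded precision. The median SE of a change was 0.27, and the 95% interval of the change lay within 1 log2 unit of 0, a 2-fold difference, for 9990 probe sets (69.4%). By their means 315 probe sets were at least 2-fold apart. A gene that missed the threshold is thus not shown to be unchanged. All deposited arrays have the same trimmed mean signal, so changes are relative to it, and the median change over all probe sets was 0.01.

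The technical measures of the 2 ages overlapped, and 1 array, day 14 replicate 3, stood lowest in some of them. Correlations of log2 signals ran from 0.945 to 0.954 within day 7, from 0.942 to 0.945 within day 14 and from 0.933 to 0.948 between the ages. The log2 ratio of 3' to 5' signal of the spiked poly-A RNAs, a sign of complete labelling, was 0.18 to 0.32 at day 7 and 0.33, 0.33 and 0.06 at day 14. The log2 signal of the 28S ribosomal RNA probe sets was 12.50 to 12.64 at day 7 and 12.79, 12.73 and 12.22 at day 14. The part of these measures in the results below was not tested, and values of several lists without day 14 replicate 3 are given with them. CKM, the creatine kinase of muscle, had signals of 44631 to 50135 at day 7 and 48099 to 54048 at day 14, and MYL1, a fast myosin light chain, 44540 to 56139 and 49065 to 58841, against a median signal per array of 161.4 to 172.6. None of the markers of other cells on the array was listed at 0 in these 6 arrays, which by itself does not show that those cells were present. Of these markers, 13 of 15 for lymphocytes and 4 of 6 for neutrophils lay among the dim probe sets left out.

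The probe set that changed, Ssc.2358.1.A1_at, has no gene symbol in the probe table used here. Its signal was 3292, 1399 and 1261 in the day 7 arrays and 219, 168 and 221 in the day 14 arrays. The ages did not overlap, and replicate 1 was the brightest of day 7. It fell by 3.16 ± 0.38 on the log2 scale (95% interval -3.98 to -2.34, limma adjusted p = 0.0182), or 8.93-fold. It stood at 3732, 5685 and 6929 at day 0 and at 99.1, 68.5 and 166 at day 21, in arrays that enter the fit's estimate of spread but not the means compared. Day 21 against day 0 gave -5.67 (adjusted p = 1.59e-05), where 1657 probe sets (11.5%) passed. Leaving out any 1 of the day 14 arrays ended the call (adjusted p = 0.0623, 0.0954 and 0.117 for replicates 1 to 3), as did fitting without the trend of variance on signal (0.0840), with a change of -3.42 to -2.72 over the left-out arrays.

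**Figure D1:**
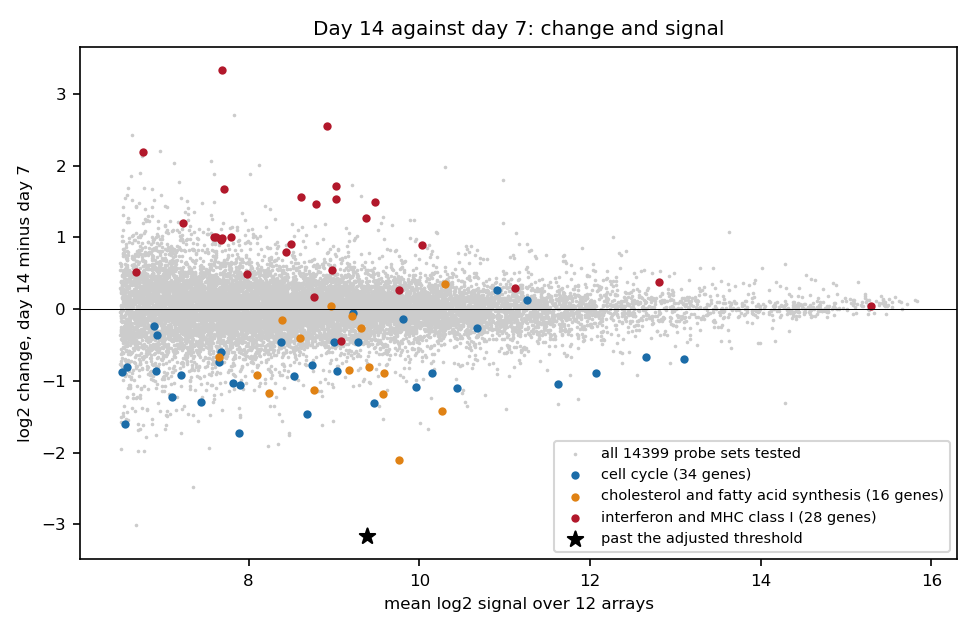
Each point is 1 of the 14399 probe sets tested, with its mean log2 signal over the 12 arrays on the x axis and its log2 change from day 7 to day 14 on the y axis. The star is the only probe set past the adjusted threshold, at -3.16, and coloured points are genes of 3 lists: 32 of 34 cell cycle genes and 14 of 16 genes of cholesterol and fatty acid synthesis lie below 0, and 27 of 28 genes of the interferon and MHC class I list lie above it.

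Among named genes the smallest p-values belonged to ACTC1 and HMGB2, both lower at day 14. ACTC1 encodes cardiac alpha-actin, the sarcomere actin of the heart that is also made in fetal and newborn skeletal muscle. Its signal was 35155, 27871 and 23697 at day 7 and 9506, 15733 and 10121 at day 14. Every day 14 array was below every day 7 array, and the change was -1.31 ± 0.22 (95% interval -1.79 to -0.84, limma adjusted p = 0.219). ACTC1 passed the threshold when arrays were quantile normalized (-1.35, adjusted p = 0.0396) or scaled on the hybridization controls (-1.37, adjusted p = 0.00657), and its adjusted p reached 1 without day 14 replicate 3.

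Other actins and sarcomere parts of developing muscle did not all share the direction. Of 8 genes on the list of developmental isoforms and actins, 5 were lower and 3 higher at day 14, with a median of -0.18 beside -0.02 over all genes. TNNT2, the troponin T of heart and immature muscle, had signals of 409, 1088 and 547 at day 7 and 126, 251 and 343 at day 14 (-1.50 ± 0.57). ACTA2, the smooth muscle actin, was at -0.35 ± 0.17, and MYL4, the embryonic and atrial light chain, at 0.35 ± 0.21 with all 3 day 14 arrays above day 7. Pericytes and smooth muscle make ACTA2 and CNN1 (calponin). The 8 markers of these cells on the array, dim ones included, summed to 42393 to 43357 at day 7 and 34878 to 42739 at day 14. CNN1 itself was at 4630, 3403 and 2162 at day 7 and at 1159, 2050 and 962 at day 14 (-1.30 ± 0.39), and 5 of the 7 markers tested were lower. The part of those cells in the actin values was not tested.

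Adult fibre isoforms differed little. The fast isoforms, which serve quick contraction, had a median change of 0.07 over 8 genes, 6 of them higher, and in 0 of the 8 did the ages separate. MYH2, a myosin heavy chain found in fast oxidative fibres, was at 51913, 49704 and 43922 at day 7 and at 50462, 58335 and 48552 at day 14 (0.11 ± 0.28). MYL1 was at 0.10 ± 0.13, MYLPF, a fast regulatory light chain, at 0.14 ± 0.13, TNNC2, the fast troponin C, at 0.12 ± 0.16, TNNT3, the fast troponin T, at 0.04 ± 0.14, and CKM at 0.10 ± 0.13. The sign of TNNT3 turned to -0.03 after quantile normalization and to -0.02 on the scale of the hybridization controls.

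Isoforms of slow fibres, which contract slowly and rely on oxygen, were mostly higher at day 14, in 8 of 10 genes and with a median of 0.38. The 3 day 14 values lay wholly above day 7 in 2 of the 10 and wholly below in 2, where 6.19% of all genes lay above and 9.01% below. TNNC1, the slow troponin C, had signals of 16047, 19585 and 13825 at day 7 and 31832, 18038 and 27935 at day 14 (0.63 ± 0.20, limma adjusted p = 0.672). Day 14 replicate 2 lay within the range of day 7, while the other day 14 arrays were above it.

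The same array was the low one in the related slow genes. TNNI1, the slow troponin I, was at 27523, 13504 and 21196 at day 14 against 12424 to 14732 at day 7 (0.57 ± 0.26). TNNT1, the slow troponin T, was at 40150, 19916 and 34499 against 18984 to 24161 (0.48 ± 0.23). MYH7, the slow myosin heavy chain, was at 42301, 28713 and 35740 against 24561 to 29892 (0.33 ± 0.19, 95% interval -0.08 to 0.74). Without day 14 replicate 2, 7 of the 10 genes lay above day 7 with no overlap, and without day 7 replicate 2, 4 did, where 13% and 9.99% of all genes then did. With any other of the 6 arrays left out the count stayed at 2 (9.86% to 12% of all genes). On the scale of the hybridization controls it was 0 (3.4% of all genes). Leaving out an array cannot lower this count, so its rise is no sign of stability. The list's median was 0.25 to 0.49 over the arrays left out. MYL2, the slow regulatory light chain, separated in all 6 arrays, at 31053 to 38755 and then 39499 to 50906 (0.38 ± 0.17). TPM3, slow alpha-tropomyosin, was 1 of the 2 lower genes, at -0.42 ± 0.18 in its brightest probe set. Another of its probe sets gave -0.40 and the dimmest of the 3 gave 0.74. The other lower gene had the lowest change of the list, -0.65, while the highest was 0.63.

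TCAP, or telethonin, caps titin at the Z-disc, the plate that joins sarcomeres end to end. It was at 6900, 7267 and 7064 at day 7 and at 11830, 8873 and 10976 at day 14 (0.57 ± 0.17), so the tight day 7 values lay below all of day 14. Of 17 genes of the Z-disc and giant sarcomere proteins 11 were higher, with a median of 0.08, and CAPN3, the muscle calpain bound to titin, was at 0.45 ± 0.22. MRLN, myoregulin, is a small membrane protein that inhibits the calcium pump of the sarcoplasmic reticulum. It was at 72.4, 148 and 200 at day 7 and at 357, 400 and 748 at day 14, and its change of 1.88 ± 0.41 was the first of the 12 higher genes named by p (limma adjusted p = 0.606). RYR1, the calcium release channel, was at 0.31 ± 0.19, and the 12 genes of excitation contraction coupling had a median of -0.02.

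**Figure D2:**
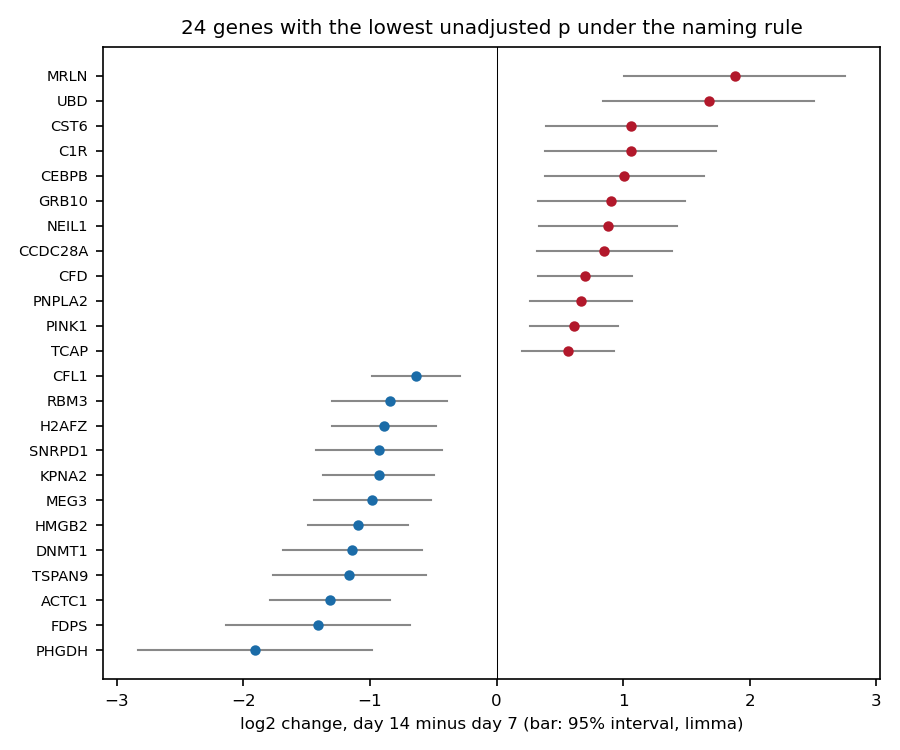
The x axis is the log2 change from day 7 to day 14 and each line is 1 gene, with a point for the estimate and a bar for its 95% interval in limma (n = 3 arrays per age). The 12 higher and 12 lower genes of lowest unadjusted p among those whose ages do not overlap are shown, so that the bars lie off 0 by selection; none passed the adjusted threshold, and the widest bar is that of PHGDH.

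Cell cycle genes stood at a lower level at day 14 as a group. Of 34 measured, 32 were lower, 17 of them at an unadjusted p under 0.05 (4.14% of all genes), and 0 passed the adjusted threshold. The median was -0.86, or 1.82-fold, beside -0.02 over all genes. In 21 of the 34 every day 14 array lay below every day 7 array, where 9.01% of all genes did. The list's mean level in each array, relative to each gene's mean over the 12 arrays, was 0.76, 0.51 and 0.60 at day 7 and 0.13, -0.02 and -0.57 at day 14. Day 14 replicate 3 was the lowest. Without it the median was -0.66, and 21 of 34 did not overlap (12.6% of all genes then lay wholly below). Of the 34, 11 then had an unadjusted p under 0.05, beside 2.45% of all genes lower at that level.

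The 4 members of lowest p follow. HMGB2, a chromatin protein abundant in dividing cells, had signals of 2817, 2348 and 2603 at day 7 and 1311, 1395 and 966 at day 14 (-1.09 ± 0.19, limma adjusted p = 0.219). H2AFZ, the histone variant H2A.Z, was at 6684, 5594 and 6207 and then at 3524, 3890 and 2667 (-0.89 ± 0.19, adjusted p = 0.606). In both genes the lowest day 7 array was well above the highest of day 14. PCNA, the sliding clamp of DNA replication, was at 2069, 1444 and 1508 and then at 1170, 923 and 660 (-0.89 ± 0.22). STMN1, stathmin, which loosens microtubules in mitosis, was at 7024, 5609 and 5869 and then at 3337, 3501 and 2233 (-1.05 ± 0.28).

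Other genes among the 12 lower ones named by p are given next, none of them on the cell cycle list. DNMT1, which copies DNA methylation to the new strand after replication, was at 734, 523 and 530 at day 7 and 357, 294 and 181 at day 14 (-1.14 ± 0.26), and a second probe set gave -0.51. KPNA2, an importin that carries proteins into the nucleus, was at 1440, 976 and 984 and then at 716, 561 and 495 (-0.93 ± 0.20), with -1.10 in a second probe set. The day 14 arrays lay below day 7 in both genes, and the smaller change in the second DNMT1 probe set is a disagreement in size. SNRPD1, a core protein of the splicing particles, was at 2370 to 2532 and then at 956 to 1680 (-0.93 ± 0.23). CFL1, cofilin, which severs actin filaments, was at 3964 to 4159 and then at 2096 to 2923 (-0.63 ± 0.16), and RBM3, a cold-inducible RNA-binding protein, at 2446 to 2894 and then at 1115 to 2028 (-0.84 ± 0.21). TSPAN9, a membrane tetraspanin, was at -1.16 ± 0.28 and -0.97 in its 2 probe sets.

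The ages around this week give the cell cycle values their place. The list stood at -1.11, -0.72 and -0.03 at day 0 and at 0.39, 0.01 and 0.05 at day 21, so day 7 was the highest of the 4 ages, and day 14 replicate 3 lay within the day 0 range. At day 21 HMGB2 was at 1562, 1201 and 1444, close to day 14, and STMN1 at 4534, 3104 and 4392. The difference between day 14 and day 21 was not tested here.

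**Figure D3:**
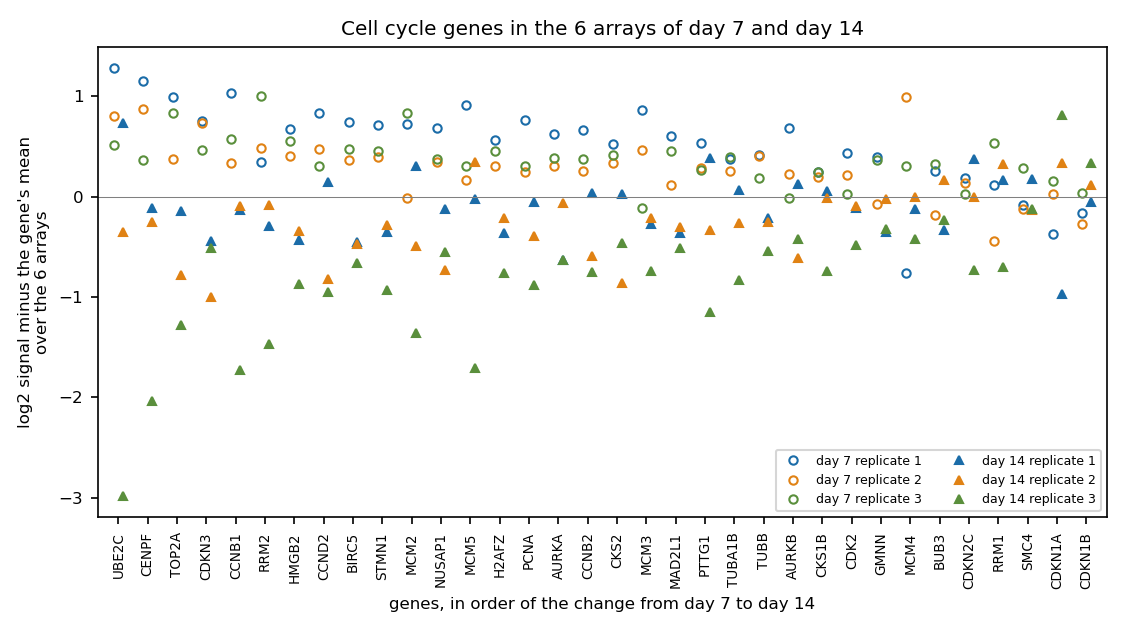
Each column is 1 of the 34 measured cell cycle genes, in order of its change, and the y axis is its log2 signal in each array minus its mean over the 6 arrays. Open circles are the 3 day 7 arrays and filled triangles the 3 day 14 arrays; circles lie above triangles without overlap in 21 genes, and day 14 replicate 3 is often the lowest point.

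Most genes on the list of cholesterol and fatty acid synthesis were also lower at day 14. The members named below belong to the cholesterol side, and fatty acid synthesis was not looked at by itself. The cholesterol pathway starts from acetyl-CoA and is switched by SREBP factors, which INSIG proteins hold back when sterols are plentiful. Of 16 genes measured, 14 were lower with a median of -0.82 (1.77-fold), 8 at an unadjusted p under 0.05 (4.14% of all genes) and 8 wholly below day 7 (9.01% of all genes), and 0 passed the adjusted threshold. The list's level was 0.50, 0.35 and 0.34 at day 7 and -0.34, -0.15 and -0.50 at day 14. The 3 arrays of each age lay close together and apart from the other age. Without day 14 replicate 3 the median was -0.60, and 5 genes had an unadjusted p under 0.05 (2.45% of all genes). Without day 7 replicate 2 there were also 5 (2.81% of all genes).

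The largest difference of the list was in INSIG1, itself a target of SREBP. It was at 2874, 2064 and 2451 at day 7 and at 647, 666 and 423 at day 14 (-2.11 ± 0.61, limma adjusted p = 0.661), and every day 7 array was above every day 14 array. When only these 6 arrays were fitted it passed (adjusted p = 0.0263); the day 0 arrays, which the other fit includes in its spread, stood at 285, 388 and 2900. FDPS, which makes farnesyl diphosphate, was at 2806, 2783 and 1846 and then at 872, 1002 and 874 (-1.41 ± 0.34). CYP51, the lanosterol demethylase, was at 1612, 1204 and 1037 and then at 482, 665 and 543 (-1.18 ± 0.37), and ACAT2, the cytosolic enzyme that joins 2 acetyl-CoA units, at 505, 395 and 504 and then at 182, 238 and 204 (-1.17 ± 0.33), with -0.41 in a dimmer probe set. These genes had no overlap between the ages, and their day 21 signals (FDPS at 845 to 1016, INSIG1 at 509 to 665) were near those of day 14.

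PHGDH, the first enzyme of serine synthesis, was lower as well. It was at 781, 428 and 356 at day 7 and at 273, 85.6 and 96.5 at day 14 (-1.91 ± 0.43, limma adjusted p = 0.606). The values differed widely within each age, with replicate 1 the highest in both.

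On the side of fat use the values were small. Of 26 genes of fatty acid uptake and oxidation 21 were higher, with a median of 0.16, and 4 lay wholly above day 7, where 6.19% of all genes did. UCP3, a mitochondrial carrier of muscle, was at 676 to 759 at day 7 and at 1057 to 1186 at day 14 (0.65 ± 0.25), and ACADVL, which begins the oxidation of long chains, was at 0.28 ± 0.15. ECHS1, a later step of the same pathway, was at -0.38 ± 0.18. PNPLA2, the lipase that starts the breakdown of stored fat, was at 2220, 3037 and 2776 at day 7 and at 4426, 3861 and 4371 at day 14 (0.67 ± 0.19), with 0.71 in a second probe set. The 16 markers of fat cells on the array, PNPLA2 among them and dim ones included, summed to 12067 to 17179 at day 7 and 16461 to 23649 at day 14. Of the 12 tested, 8 were higher, with a median of 0.22. DGAT2, which makes triglyceride, was at 85.6, 169 and 500 and then at 450, 325 and 599 (1.20 ± 0.52). The part of fat cells in these values was not tested.

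Energy metabolism beyond that was level. The 55 genes of oxidative phosphorylation had a median of 0.00 with 28 higher and 27 lower, and the 22 genes of the citric acid cycle a median of -0.02. Glycolysis, with 20 genes, had a median of 0.06, led by PKM, pyruvate kinase (0.48 ± 0.17), and ALDOC, an aldolase (0.83 ± 0.32). PINK1, a kinase that marks damaged mitochondria for removal, was at 2955, 2508 and 2592 at day 7 and at 4490, 3659 and 4162 at day 14 (0.61 ± 0.16). All 3 day 14 arrays were above day 7 in PINK1, and its day 21 signals were 3896 to 4909.

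Genes induced by interferon and those of MHC class I were higher at day 14 on average, with day 7 replicate 1 on the side of day 14. Interferons are the alarm signals of viral infection, and the genes they induce block viral growth and show peptides from inside the cell to T cells. Of 28 genes measured, 27 were higher, 15 at an unadjusted p under 0.05 (2.79% of all genes), and the median was 1.0 (2-fold), while 0 passed the adjusted threshold. Only 1 of the 28 had its day 14 arrays wholly above day 7, where 6.19% of all genes did. The list's level was 1.03, -0.63 and -0.60 at day 7 and 1.0, 0.41 and 1.60 at day 14, so replicate 1 of day 7 was as high as replicate 1 of day 14.

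With that array left out, 22 of the 28 lay above day 7 with no overlap (11% of all genes then did), 19 had an unadjusted p under 0.05 (2.38% of all genes) and the median was 1.47. The second count moved with the other arrays too. Leaving out day 14 replicate 2 gave 19 (3.04% of all genes), with 9 of 28 not overlapping (13% of all genes). Leaving out day 7 replicate 2 gave 4 (1.91% of all genes) and day 7 replicate 3 gave 3 (1.87%). Leaving out day 14 replicate 1 gave 8 (2.32% of all genes) and day 14 replicate 3 gave 2 (1.57%). The count without overlap was 1 of 28 without day 7 replicate 2 or 3 (9.99% and 9.97% of all genes). It was 2 without day 14 replicate 1 or 3 (12% and 9.86%). Dropping an array cannot lower that count. The medians were 0.71 to 1.30 over the arrays left out other than day 7 replicate 1. The summed signal of the neutrophil markers was also high in that array, at 3077, where replicates 2 and 3 of day 7 had 402 and 203 and the day 14 arrays 371 to 684, while 4 of its 6 genes were dim. The lymphocyte markers were lowest there, at 610 against 999 and 762, and stood at 1170, 897 and 1210 at day 14, with 13 of 15 dim. Whether white blood cells play a part in the list's level there was not tested.

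**Figure D4:**
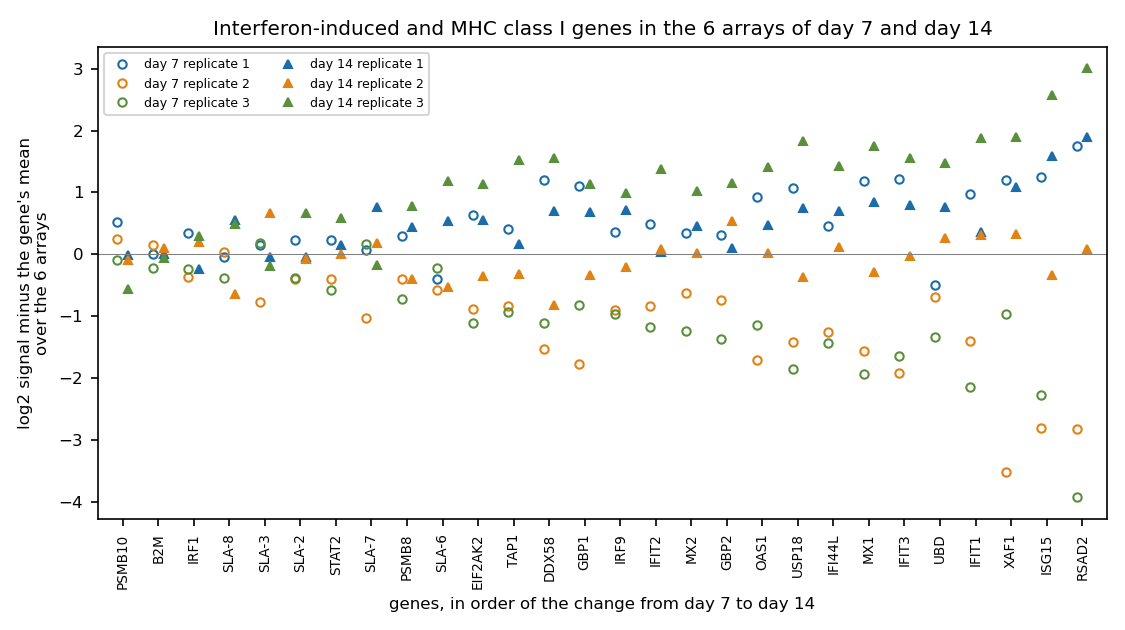
Each column is 1 of the 28 measured genes of the interferon and MHC class I list, in order of its change, and the y axis is its log2 signal in each array minus its mean over the 6 arrays. Open circles are day 7 and filled triangles day 14; in most columns the day 7 replicate 1 circle lies among the triangles and above the other circles, and day 14 replicate 3 is often the highest triangle.

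The gene that separated the ages was UBD, a ubiquitin-like tag induced by interferon gamma. It was at 167, 146 and 93.9 at day 7 and at 402, 284 and 655 at day 14 (1.68 ± 0.39, limma adjusted p = 0.606). ISG15, another ubiquitin-like protein, showed the pattern of the list: 2156, 130 and 190 at day 7 and 2754, 727 and 5399 at day 14. Its change was 2.56 ± 0.91, ran from 1.79 to 3.82 over the alternatives and was largest without day 7 replicate 1. IFI44L was at 1651, 501 and 441 and then at 1943, 1294 and 3204 (1.49 ± 0.45, with 1.40 in a second probe set), and GBP2, an interferon-induced GTPase, at 223, 108 and 70.3 and then at 193, 263 and 400 (1.20 ± 0.43).

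IFIT1 binds viral RNA and was chosen here after its values were seen. One of its probe sets was at 807, 120 and 133 at day 7 and at 752, 782 and 1442 at day 14 (2.01 ± 0.58), and without day 7 replicate 1 it was called in limma, at 2.90. The brightest IFIT1 probe set gave 1.71 ± 0.63.

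Genes of MHC class II, carried by cells that present antigen, had a smaller difference. Of 7, 6 were higher, with a median of 0.35, and 3 lay wholly above day 7, where 6.19% of all genes did. SLA-DRA was at 1825, 1320 and 1293 at day 7 and at 2619, 1936 and 3809 at day 14 (0.88 ± 0.42), and SLA-DRB1 was at 0.44 ± 0.21. The SLA genes resemble one another, so their probe sets can cross-hybridize. The 11 macrophage markers tested, which mark cells that carry class II, had a median of 0.13, with C1QC at 0.51 ± 0.39. The 13 macrophage markers on the array, dim ones included, summed to 3798 to 5720 at day 7 and 3915 to 7309 at day 14. The part of macrophages in the class II values was not tested.

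Complement and acute phase genes were higher at day 14 in most members, and 5 were lower. Complement is a chain of blood proteases that tags microbes, and its first complex holds C1R and C1S, which SERPING1 inhibits. Of 17 genes of complement and the acute phase 12 were higher, with a median of 0.51. In 7 the day 14 arrays lay wholly above day 7 and in 1 below, where 6.19% and 9.01% of all genes did. The lowest change of the list was -0.94, in SERPINA1, the blood protease inhibitor alpha-1-antitrypsin, which was singled out after its values were seen. C1R was at 930, 603 and 789 at day 7 and at 1400, 1247 and 2291 at day 14 (1.06 ± 0.31), C1S at 1839, 1300 and 1548 and then at 2930, 2702 and 4283 (1.06 ± 0.32), and SERPING1 at 1815, 1433 and 1692 and then at 2898, 2495 and 2645 (0.71 ± 0.22). CFD, adipsin, the protease of the alternative pathway that fat cells secrete, was at 1742, 1262 and 1193 and then at 2052, 2228 and 2453 (0.70 ± 0.17); it is on the list of fat cell markers as well. In each of these 4 genes all day 14 arrays were above day 7. The median of the list depended on single arrays, at 0.24 without day 14 replicate 3, 0.25 without day 7 replicate 3 and 0.34 without day 7 replicate 2. With an array left out, 7 or 8 genes lay above with no overlap, where 9.86% to 13% of all genes then did. That count cannot fall when an array is left out, so it says nothing of stability.

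CEBPB, a transcription factor of the acute phase and of fat cell formation, was at 2871, 3979 and 3887 at day 7 and at 6912, 5474 and 9614 at day 14 (1.01 ± 0.29). Of the 19 genes of the glucocorticoid response and the circadian clock, which include it, 15 were higher with a median of 0.27. FKBP5, a chaperone induced by glucocorticoids, was at 690, 1046 and 1462 and then at 1884, 1004 and 3452 (0.88 ± 0.47), so its ages overlapped. Among 16 cytokine and chemokine genes, IL4R, the interleukin 4 receptor, was at 0.57 ± 0.20, CCL5, a chemokine for T cells, at 1.23 ± 0.46, CXCL2, one for neutrophils, at 0.87 ± 0.36, and TNFRSF12A, the TWEAK receptor, at -1.58 ± 0.55.

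Imprinted growth genes, which are read from 1 parental copy and act mainly before and soon after birth, were lower in 8 of 9. The median was -0.47, with 4 wholly below day 7 and 1 above, beside 9.01% and 6.19% of all genes. MEG3, a long RNA made from the maternal copy, was at 894, 665 and 818 at day 7 and at 459, 364 and 380 at day 14 (-0.98 ± 0.21), and -0.42 in a second probe set. PEG10, a gene derived from a retrotransposon and read from the paternal copy, was at 1162, 1056 and 1452 and then at 684, 988 and 343 (-0.98 ± 0.37), and NDN, necdin, which restrains growth of nerve and other cells, at 1068 to 1252 and then at 668 to 848 (-0.56 ± 0.21). These had no overlap between the ages. The exception was GRB10, an adaptor that dampens insulin and IGF receptor signals, at 1894, 1414 and 1468 and then at 2109, 2564 and 4797 (0.91 ± 0.27, and 0.91 ± 0.34 in a dimmer probe set).

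MEG3 and PEG10 also stood lower at day 21 than at day 0 (-1.97, adjusted p = 0.000493, and -1.94, adjusted p = 0.00592), and GRB10 higher (1.01, adjusted p = 0.0285). Those arrays are not in the day 7 and day 14 means but share the fit's estimate of spread, and 14.5% of genes passed in that comparison.

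IGF2, the fetal insulin-like growth factor, is imprinted too. Its brightest probe set was at 24748, 18207 and 18760 at day 7 and at 18336, 13436 and 12804 at day 14 (-0.47 ± 0.19, limma adjusted p = 0.784). Day 14 replicate 1 reached into the range of day 7, so the ages overlapped. IGF2 is read by 11 tested probe sets, of which the dimmest was at 0.14, another at -0.05 and the rest between -0.92 and -0.47.

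The receptor of growth hormone, GHR, through which the pituitary drives growth after birth, was at 302, 322 and 275 at day 7 and at 398, 540 and 652 at day 14 (0.79 ± 0.24, limma adjusted p = 0.667). All day 14 arrays lay above day 7. IGF1, the growth factor that growth hormone induces, was at 330 to 336 and then at 339 to 459 (0.26 ± 0.24, with 0.01 in a second probe set). MSTN, myostatin, the secreted brake on muscle growth, was at 373, 626 and 512 and then at 508, 1070 and 1088 (0.77 ± 0.62), and the ages overlapped. A second MSTN probe set of nearly the same brightness gave 0.305 ± 0.472. Of 22 genes of the IGF, growth hormone and myostatin axis 15 were higher, with a median of 0.16.

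Myogenic factors, which switch on the muscle programme, did not move together. MYOD1 was at 1028, 744 and 484 at day 7 and at 775, 966 and 698 at day 14 (0.17 ± 0.26), MYF6 at 868, 2034 and 2869 and then at 985, 1190 and 1465 (-0.52 ± 0.44), and MYF5 at 136 to 177 and then at 78.5 to 300 (95% interval -0.99 to 1.0). All 3 overlapped. SIX4, a homeobox factor that acts upstream of them, was at 0.58 ± 0.26.

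Genes of protein synthesis, folding and breakdown had medians near that of all genes. The 57 ribosomal proteins had a median of 0.01 and the 28 translation factors of 0.04, with EIF4A1, an RNA helicase of initiation, at -0.60 ± 0.25. The 29 genes of ribosome assembly had a median of -0.12 and 19 lower members, while PWP2, one of them, was at 1.15 ± 0.41. The 35 proteasome genes had a median of 0.02, with PSMD11 (0.38 ± 0.25) and PSMA4 (-0.25 ± 0.14) on either side. Heat shock proteins and chaperones, which fold proteins, were lower in 32 of 36, but by little: the median was -0.13 and 4 lay wholly below day 7, a share near the 9.01% of all genes. Among them HSPB8, a small heat shock protein of muscle, was at 8504, 10493 and 10303 at day 7 and at 6061, 7683 and 6872 at day 14 (-0.51 ± 0.19), and HSPB1 was at -0.45 ± 0.28. Without day 14 replicate 2, 25 of 36 were lower, and without day 14 replicate 1, 10 lay wholly below, where 16.1% of all genes then did.

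**Figure D5:**
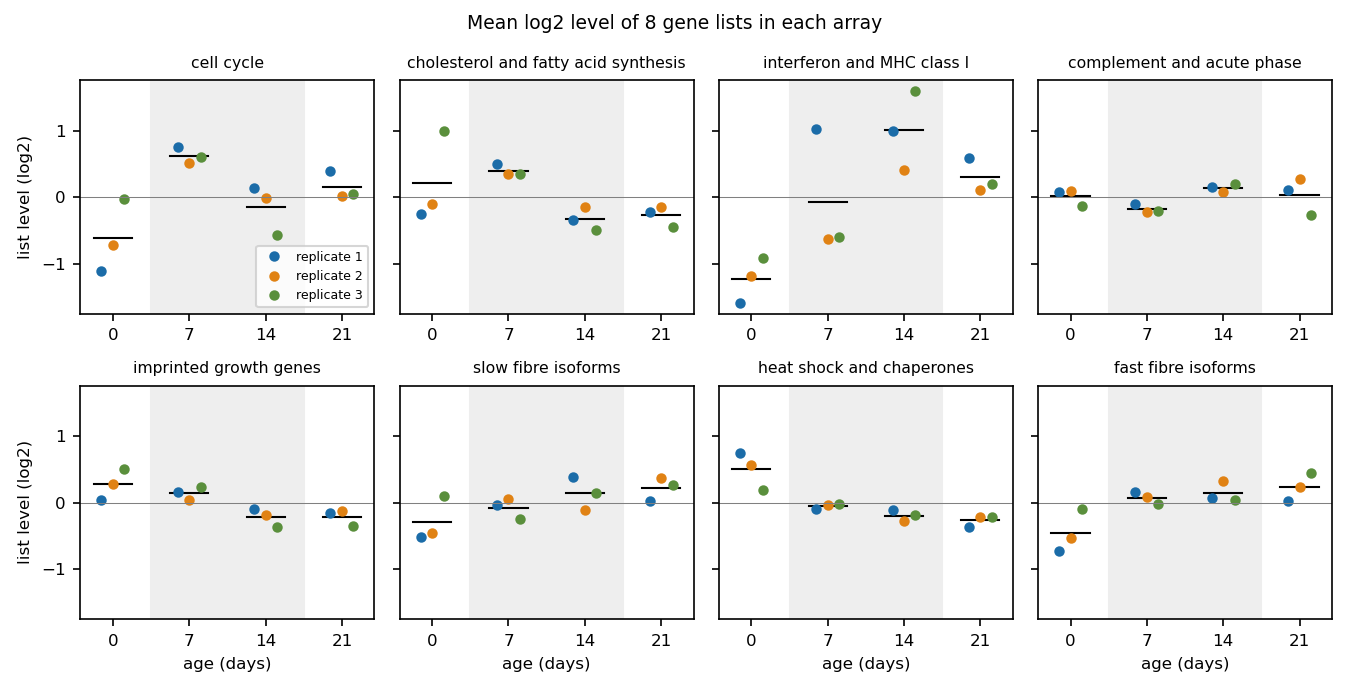
Each panel is 1 gene list and each point 1 array, with age in days on the x axis and, on the y axis, the mean log2 signal of the list's measured genes relative to each gene's mean over the 12 arrays. Bars are means of 3 arrays and day 7 and day 14 are shaded; cell cycle genes go from 0.51 to 0.76 at day 7 to -0.57 to 0.13 at day 14, and the interferon and MHC class I list has 1 day 7 array at 1.03.

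The remaining named genes of lowest p at day 14 serve other roles. CST6, cystatin M, a protease inhibitor, was at 393, 279 and 183 at day 7 and at 549, 758 and 441 at day 14 (1.07 ± 0.31). NEIL1, which removes oxidised bases from DNA, was at 585, 452 and 382 and then at 829, 784 and 967 (0.88 ± 0.25). CCDC28A, a coiled-coil protein, was at 270, 253 and 203 and then at 358, 511 and 446 (0.85 ± 0.25). In these 3 genes the ages did not overlap, and the adjusted p was 0.661 in each.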

How the data were processed

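The values are those the authors deposited: an intensity (linear signal) for each probe set. Per the submitters' processing notes the tool was MAS5, with no version named. The 2% trimmed mean was 500.1 on every array, so log2 of the signal was taken with no further scaling. Of 24123 probe sets, 124 controls and then the lowest 40% by mean log2 signal (limit 90.28) were left out, leaving 14399. Symbols came from the probe table; 7144 tested probe sets carried 1, standing for 5296 genes.

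limma 3.58.1 (R 4.3.3) fitted a mean per age over all 12 arrays with eBayes and a mean-variance trend. Benjamini-Hochberg adjustment was over all 14399, at a threshold of 0.05. No list test was run: each of 42 gene lists is given by counts and median. The members and lists were chosen with earlier results of these data known. Named were the 12 genes of lowest p in each direction whose ages did not overlap and which were bright enough, up to 4 members of a list by p, and a set of muscle genes; ACTA1 carries no symbol among the tested probe sets. The fit was tested on simulated data. Replicate numbers were not taken as pairs in the main fit. Deviations of same-numbered arrays correlated at 0.071, 0.003 and -0.053, and those of differently numbered arrays at -0.117 to 0.113. These few correlations cannot show that no litter or batch was shared. Figures used matplotlib 3.10.9. No sequence or coordinates are printed.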

Additional observations from a re-analysis of the deposited data

How the results depend on the processing

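The count of 1 changed probe set moved with the settings. It was 2 with quantile normalization or with arrays scaled on the hybridization controls (ACTC1 added), 3 when only the 6 arrays were fitted, 0 without the variance trend, and 0 to 2 with single arrays left out. The number of these that also passed between day 21 and day 0, 1 here, was 2 with either of those scalings, 0 without the trend, and 0 to 2 with single arrays left out. With the replicate number as a block the count stayed at 1 (adjusted p = 0.0475), and no named gene was called. With the lowest 60% of probe sets left out, 18 of 20 cell cycle genes were lower and 17 of 18 interferon and MHC class I genes higher. That filter only drops genes and leaves the changes of the others as they were, so it cannot test their direction. The complement median was 0.35 with no filter and 0.24 to 0.56 with single arrays left out, the cholesterol and fatty acid median -0.89 to -0.60, and the imprinted median -0.64 to -0.38, or -0.32 when each gene's probe sets were averaged. Of 90 named genes and probe sets 87 kept their direction in each of the 17 settings that measured them. This was in large part fixed beforehand. The 24 genes named for ages that do not overlap cannot turn when an array is left out. Many others were named for a low p in the same data. The filters and the fit without the trend do not alter a change at all. TNNT3 turned to -0.03 (quantile) and -0.02 (hybridization controls), MYF5 to -0.02 (quantile and median centring), -0.05 (hybridization controls) and -0.01 (array weights). With single arrays left out TNNT3 was at -0.04 to 0.10, MYOD1 at -0.12 to 0.43 and MYF5 at -0.46 to 0.51. Except where stated, the cause was not tested. The precision is limited by the number of arrays, and of the dim probe sets below the filter nothing is said here.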

Other observations

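Single genes of several lists not described above also had the ages apart. Among 37 genes of the extracellular matrix 24 were lower, with a median of -0.10. Of the 37, 3 lay wholly below day 7 and 0 above, where 9.01% and 6.19% of all genes did. LOXL1, which cross-links elastin, was at 1131, 825 and 944 at day 7 and at 532, 796 and 352 at day 14 (-0.85 ± 0.38), and COL15A1, a basement membrane collagen, at 7125 to 9221 and then at 4520 to 6017 (-0.59 ± 0.28). VWF, the clotting factor of vessel walls, was at 325, 439 and 398 and then at 680, 594 and 585 (0.69 ± 0.26), while 11 of 15 endothelial markers were lower, with a median of -0.12. ALAS2, the heme enzyme of red cell precursors, was at 297 to 395 and then at 490 to 613 (0.63 ± 0.27), and the erythroid markers summed to 3865 to 4308 at day 7 and 4476 to 5192 at day 14.

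EGLN1, an oxygen sensor that marks HIF for breakdown, was at 3341 to 3938 at day 7 and at 4673 to 6543 at day 14 (0.63 ± 0.20), with 0.30 and 0.17 in its other probe sets. TXNIP, which inhibits thioredoxin and glucose uptake, was at 22491 to 25902 and then at 28122 to 31854 (0.29 ± 0.11). GSS, which makes glutathione, was at 252, 397 and 310 and then at 110, 222 and 236 (-0.81 ± 0.36). None of these passed the adjusted threshold in limma.

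Of the 39 lists with at least 4 measured genes, 30 had a median within 0.25 of 0, and in all 42 lists 0 genes were called. A pair of unnamed probe sets passed in a single setting each. Ssc.19303.1.S1_at was at 1091, 1305 and 1281 at day 7 and at 4459, 4800 and 3630 at day 14 (1.80 ± 0.51), and was called when only the 6 arrays were fitted. Ssc.6941.1.A1_at was at 11.2, 173 and 20.8 and then at 152, 157 and 263 (2.43 ± 0.74), and was called without day 7 replicate 2. That array is the one of day 7 that lay within the day 14 range. The remaining day 7 signals, 11.2 and 20.8, are dim, below the 90.28 that served as filter limit for mean signals.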
